A study of Mus musculus with 12 samples.

Results

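The 8 S100 genes S100a1, S100a4, S100a6, S100a8, S100a9, S100a10, S100a11 and S100a13 were followed in pancreatic islets of mice that overexpress sorcin in beta cells and in islets of their littermate controls. Every probe whose symbol was one of these names was taken, which gave 9 probes among 45281: 2 for S100a11 and 1 for each other gene. The names stand among 30979 gene names on the array. One group was 6 SRI-tg10 mice, which carried 10 copies of a transgene in which a tetracycline-inducible promoter drives sorcin (SRI) cDNA and luciferase. The rat insulin promoter drove the tetracycline-activated transactivator, so that doxycycline turned the transgene on in beta cells. The other was 6 littermate controls. The growth protocol given for both groups describes the double transgenic mouse, so the labels leave the controls' own genotype unclear. All 12 mice were male C57BL/6, 8 weeks old, and per the series' design text both groups ate a diet with 60% fat and drank doxycycline at 500 mg/L for 4 weeks. Each array is 1 mouse. Each sample title also carries a letter, A or B, with no stated meaning, and each letter covers 3 mice of each group. One label field calls the material beta cells and another islets of Langerhans, and markers of acinar, immune, fibroblast, duct and endothelial cells were detected besides the islet hormones. The summed linear level of 23 acinar genes was 482896 to 548836 in SRI-tg10 and 432057 to 545709 in control samples. That of 17 islet endocrine genes was lower, 206290 to 260612 and 199144 to 254941. These sums over different genes do not give cell shares. In such bulk RNA, a change in the number of cells of a type and a change in RNA per cell cannot be told apart.

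S100 proteins are small calcium sensors found only in vertebrates. Each holds a pair of EF-hand loops, and most work as dimers that open on binding calcium and then grip a partner protein. S100a8 and S100a9 pair with each other as calprotectin, an abundant protein of neutrophils and monocytes that is released in inflammation and acts on the receptors Tlr4 and Ager. S100a10 differs from the rest in that it no longer binds calcium and joins annexin A2 at the plasma membrane. Sorcin is itself an EF-hand protein, of the penta-EF-hand family, that acts on calcium release and uptake at the endoplasmic reticulum.

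All 8 genes lie on mouse chromosome 3, in RefSeq gene order in 2 blocks. S100a1 and S100a13 are next to each other with no coding gene between them, S100a4 and S100a6 have 1 coding gene between them (S100a5), and S100a8 and S100a9 are next to each other. After 56 further coding genes come S100a11 and S100a10, again neighbours. RefSeq promoter windows (GRCm38.p6, 250 bases before to 50 bases after the annotated start) were at hand for 7 of the 8 genes, all but S100a10. The bead array files name no genome build, so these positions belong to the RefSeq table and not to the probes. The windows were searched on both strands for TATAAA (the TATA box), TGAGTCA (an AP-1 site) and GGGCGG (a GC box). TATAAA is in the windows of S100a4, S100a8 and S100a9, once each and on the gene's own strand, and 13.6% of all 32851 windows hold it. S100a11 holds TGAGTCA at 2 places, a motif of 5.20% of windows, and GGGCGG at 3 places. S100a9 holds GGGCGG once, and 35.7% of windows hold that motif. These matches describe the letters of the windows and were set against no measurement. The 3 windows with TATAAA are shown because they belong to the neighbours whose levels are compared below, S100a8 and S100a9, and to S100a4, with the motif in capitals. They are chr3:90668821-90669120 on the plus strand for S100a8, chr3:90695672-90695971 on the minus strand for S100a9 and chr3:90603520-90603819 on the plus strand for S100a4.
S100a8: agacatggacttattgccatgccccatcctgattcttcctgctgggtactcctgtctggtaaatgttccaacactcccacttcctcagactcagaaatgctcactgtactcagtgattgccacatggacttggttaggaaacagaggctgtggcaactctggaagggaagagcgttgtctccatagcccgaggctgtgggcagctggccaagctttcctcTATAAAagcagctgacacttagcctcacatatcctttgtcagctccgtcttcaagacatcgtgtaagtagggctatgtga
S100a9: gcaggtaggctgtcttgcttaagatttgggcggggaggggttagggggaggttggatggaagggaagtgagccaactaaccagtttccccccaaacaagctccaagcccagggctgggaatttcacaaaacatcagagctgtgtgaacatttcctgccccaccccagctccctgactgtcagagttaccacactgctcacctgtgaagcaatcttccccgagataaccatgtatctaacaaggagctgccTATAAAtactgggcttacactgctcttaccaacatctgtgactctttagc
S100a4: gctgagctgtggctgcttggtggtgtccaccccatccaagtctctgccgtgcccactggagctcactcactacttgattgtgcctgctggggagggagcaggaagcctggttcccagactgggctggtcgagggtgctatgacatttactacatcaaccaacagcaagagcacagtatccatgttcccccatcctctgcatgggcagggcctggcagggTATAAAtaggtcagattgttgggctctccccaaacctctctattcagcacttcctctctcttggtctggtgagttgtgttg
The motif begins at base 221 of the S100a8 window, base 251 of the S100a9 window and base 220 of the S100a4 window.

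S100a1 and S100a13 are transcribed in opposite directions from nearly the same place, and their windows overlap over 204 bases. The S100a13 window, chr3:90514185-90514484 on the plus strand, is shown with the bases that also lie in the S100a1 window (chr3:90514281-90514580, minus strand) in capitals.
S100a13: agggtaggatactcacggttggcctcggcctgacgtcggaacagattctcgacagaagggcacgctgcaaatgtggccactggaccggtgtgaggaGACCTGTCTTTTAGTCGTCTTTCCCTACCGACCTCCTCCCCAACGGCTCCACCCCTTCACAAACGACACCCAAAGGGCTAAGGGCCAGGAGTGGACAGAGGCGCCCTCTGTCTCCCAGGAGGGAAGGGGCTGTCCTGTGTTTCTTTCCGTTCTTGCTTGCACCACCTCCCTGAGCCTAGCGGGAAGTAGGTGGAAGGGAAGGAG

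The deposited bead intensities were background-corrected, quantile-normalized and put on a log2 scale, and a probe was tested where its detection p (its brightness against negative control beads) was under 0.05 on at least 6 of the 12 arrays. Between 16271 and 20094 probes were detected per array, and arrays correlated between 0.918 and 0.983 over the kept probes. Control replicate 5 had the fewest detected probes. The 3 kept probes of Sri, the gene that encodes sorcin, were higher in SRI-tg10 islets by 4.12 to 5.21 on the log2 scale, with limma adjusted p-values from 7.43e-06 to 0.000424. Of 18315 kept probes, 4 passed an adjusted p of 0.05 between the groups (0.0218%), and 781 had an unadjusted p under 0.05 (4.26%). The kept S100 probes numbered 8 of 9, since the S100a9 probe was detected on 4 arrays only.

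None of the 8 kept S100 probes passed the test between SRI-tg10 and control islets (0 of 8 with limma, against 0.0218% of all kept probes). None had an unadjusted p under 0.05 either, against 4.26% of all kept probes. Their limma adjusted p-values ranged from 0.922 to 0.971. On no probe did all 6 SRI-tg10 arrays lie above or below all 6 control arrays, a pattern that 0.169% of kept probes showed. Of the 8 kept probes 7 had a higher mean in SRI-tg10 islets, where 49.3% of all kept probes did, and 1 a lower mean, against 50.7%, and the differences ran from -0.034 to 0.31 on the log2 scale. Their intervals differed widely in width.

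**Figure D1:**
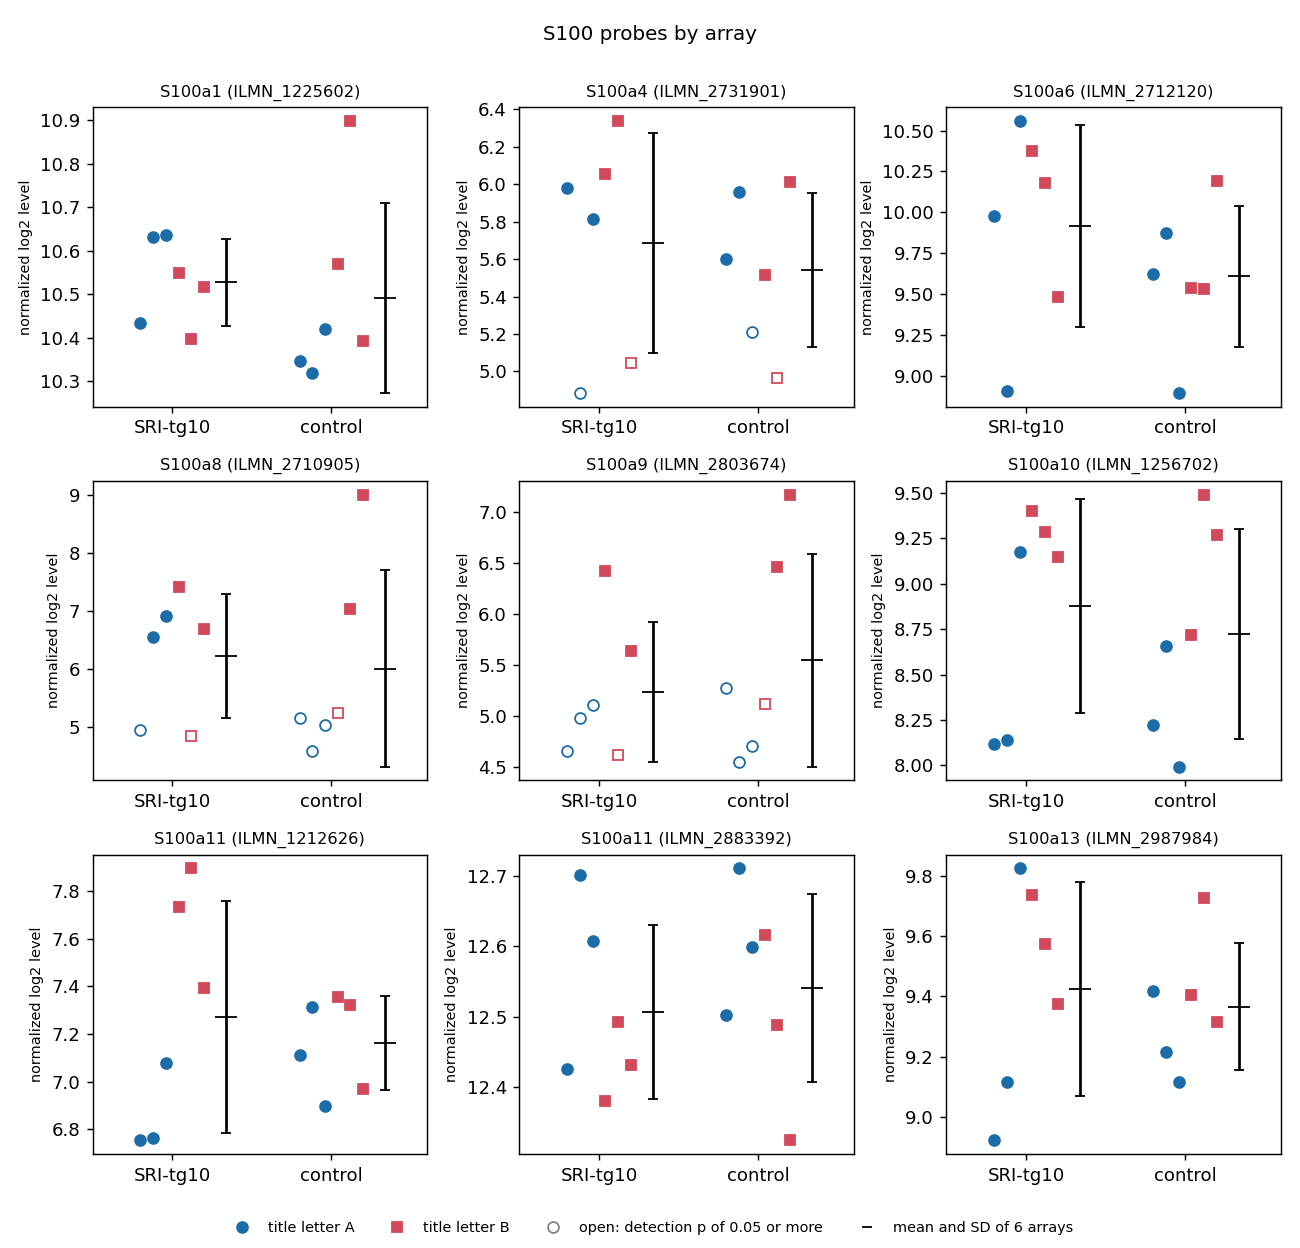
Normalized log2 level of each S100 probe in every array, SRI-tg10 on the left and control on the right of each panel (6 arrays each), with the group mean and SD as bars; symbols give the title letter, and open symbols mark arrays where the probe was not detected. The groups overlap on all 9 panels, S100a8 and S100a9 are undetected on many arrays, and the scale of each panel is its own.

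S100a8, a subunit of calprotectin, was the member that varied most between mice of a group. Its probe read 4.96, 6.55, 6.93, 7.42, 4.85 and 6.70 (log2) in the 6 SRI-tg10 islets, against 5.16, 4.59, 5.03, 5.24, 7.04 and 9.02 in the 6 control islets. It was detected in 4 SRI-tg10 and 2 control mice, and the highest array was a control. The means were 6.24 ± 1.07 in SRI-tg10 islets and 6.01 ± 1.70 in control islets (SD, n = 6 each). The difference was 0.22 ± 0.71 (SE), with a 95% interval from -1.30 to 1.75, which spans folds from 0.406 to 3.35 (limma adjusted p = 0.969, exact two-sided permutation p = 0.859). Without control replicate 6, the difference was 0.82. Only 0.753% of kept probes had a larger spread within groups.

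S100a9, the partner subunit of calprotectin, stayed below the detection filter. It read 4.66, 4.98, 5.10, 6.42, 4.61 and 5.64 in SRI-tg10 islets, against 5.27, 4.55, 4.70, 5.12, 6.47 and 7.18 in control islets (log2). The probe was detected in 2 SRI-tg10 and 2 control mice, all of letter B. The means were 5.24 ± 0.69 in SRI-tg10 islets and 5.55 ± 1.05 in control islets (SD, n = 6 each), and the exact two-sided permutation p was 0.558. In a fit with no detection filter the difference was -0.31 ± 0.46 (SE), and it was 0.015 without control replicate 6.

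All 4 arrays on which S100a9 was detected also had S100a8 detected, while S100a8 was detected without S100a9 in SRI-tg10 replicates 2 and 3. The normalized S100a8 levels fell into a cluster of 6 undetected arrays, from 4.59 to 5.24, and one of 6 detected arrays, from 6.55 to 9.02. Before normalization the clusters overlapped, with control replicate 5 (detected) at an intensity of 172 and control replicate 1 (undetected) at 175.7. Control replicate 5 was also below SRI-tg10 replicates 2 (238.9) and 3 (230.2), which it exceeded after normalization. The gap between the clusters is thus one of normalized values. S100a9 was detected on 4 arrays only. For these reasons no correlation is given for either gene, and the shared detection is a description with no test.

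The genes that mark neutrophils mostly fell below the detection filter, as S100a9 did. Of 26 neutrophil and granulocyte genes on the array, 4 were kept, among them Mmp9, a gelatinase, Il1b, a cytokine of myeloid cells, and Hdc, the histamine-forming enzyme. The granule genes Ngp, Camp, Ltf, Lcn2 and Mpo and the receptors Cxcr2 and Csf3r stayed below the filter. The kept genes' summed linear level ranged from 464 to 1456 in SRI-tg10 islets and from 476 to 1415 in control islets, and none passed the test. Correlations of S100a8 and of S100a9 with this list were run with those of the other marker lists described below, and neither passed. No value is given for them, because of the S100a8 clusters and the few arrays with S100a9 detected, and no conclusion is drawn. The part of neutrophils in the S100a8 and S100a9 levels was not tested beyond this.

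S100a8 was also read within each title letter. The difference between letters, B minus A, was 1.18 ± 0.66 (SE) and did not pass (limma adjusted p = 0.382). Within letter A, S100a8 averaged 6.14 in SRI-tg10 and 4.93 in control islets (n = 3 each), a difference of 1.22 ± 0.88 (SE). Within letter B it averaged 6.33 in SRI-tg10 and 7.10 in control islets, a difference of -0.77 ± 0.88 (SE). The difference between the letters in this group effect was -1.99 ± 1.25 (SE), with a limma adjusted p of 1.00. No kept probe passed that interaction test with limma (0%), and 427 had an unadjusted p under 0.05 (2.33%).

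**Figure D2:**
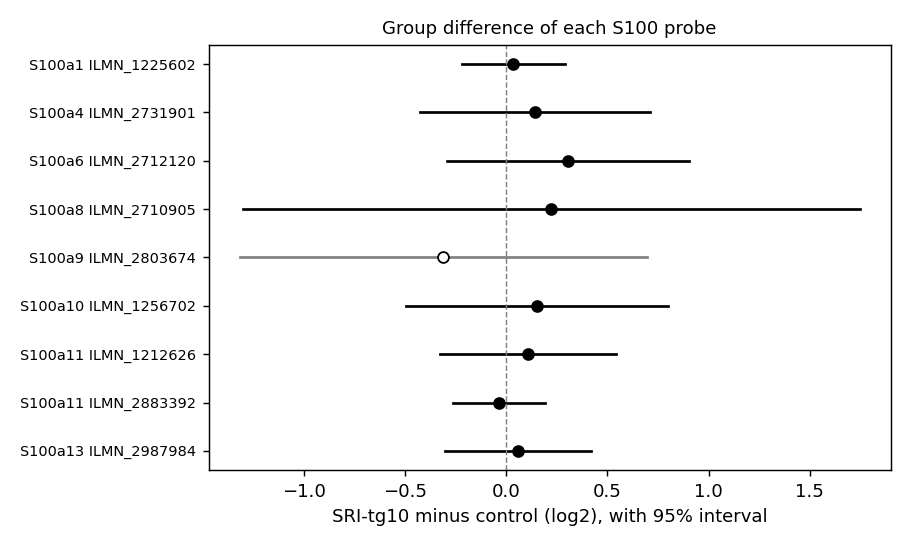
Difference of each S100 probe between SRI-tg10 and control islets (SRI-tg10 minus control, log2, 6 arrays each), as a point with its 95% interval; the open point is S100a9, from the fit with no detection filter. Every interval holds 0, and that of S100a8 is the widest, from -1.30 to 1.75, against -0.26 to 0.19 for the ILMN_2883392 probe of S100a11.

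S100a1, S100a11 and S100a13 were the members with the narrowest intervals. S100a1, known from heart and skeletal muscle as an enhancer of calcium cycling at the sarcoplasmic reticulum, read 10.43, 10.63, 10.64, 10.55, 10.40 and 10.52 in SRI-tg10 islets, against 10.35, 10.32, 10.42, 10.57, 10.90 and 10.39 in control islets (log2). After normalization, control replicate 5 was above every other array, and the other control arrays lay within or just below the SRI-tg10 range. Before normalization that array had the lowest S100a1 intensity of all arrays (1121.3), so its high place rests on the scaling. The difference was 0.037 ± 0.12 (SE), with folds from 0.859 to 1.23 inside the 95% interval (limma adjusted p = 0.971, exact permutation p = 0.749).

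S100a11, a partner of annexins in membrane repair, had 2 probes that did not move together. ILMN_2883392, the one with the higher intensity, ranged from 12.38 to 12.70 with a median of 12.46 in SRI-tg10 islets, and from 12.32 to 12.71 with a median of 12.55 in control islets. Its difference was -0.034 ± 0.11 (SE), folds from 0.834 to 1.14 lay inside the 95% interval, and 96.6% of kept probes had a larger spread within groups (limma adjusted p = 0.968, exact permutation p = 0.634). ILMN_1212626 read 6.75, 6.76, 7.08, 7.73, 7.90 and 7.40 in SRI-tg10 islets, against 7.11, 7.31, 6.90, 7.35, 7.32 and 6.97 in control islets. Its difference was 0.11 ± 0.20 (SE; limma adjusted p = 0.954, exact permutation p = 0.608). Over the 12 arrays the 2 probes correlated with r = -0.213 (permutation p = 0.504) and rho = -0.133 (permutation p = 0.684), so the gene's level rests on which probe is read. The low SRI-tg10 values of ILMN_1212626 were the 3 mice of letter A. Among letter A mice its group difference was -0.24 ± 0.19 (SE), among letter B mice 0.46 ± 0.19 (SE), and the difference between these was 0.70 ± 0.27 (SE; unadjusted p = 0.0244, adjusted p = 1.00, both with limma).

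S100a13, which helps carry Fgf1 out of cells by a route outside the classical secretory pathway, read 8.92, 9.12, 9.83, 9.74, 9.58 and 9.38 in SRI-tg10 islets, against 9.42, 9.21, 9.12, 9.41, 9.73 and 9.32 in control islets. SRI-tg10 islets held both the highest and the lowest array. The highest control array, replicate 5, had the lowest intensity of all arrays before normalization (516.7). The difference was 0.059 ± 0.17 (SE), with folds from 0.811 to 1.34 inside the 95% interval (limma adjusted p = 0.967, exact permutation p = 0.738). Without SRI-tg10 replicate 3 it was -0.021 and without SRI-tg10 replicate 4 it was -0.0032.

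S100a4, S100a6 and S100a10, which are tied to the cytoskeleton and the membrane, varied more between mice of a group. S100a4, also called fibroblast-specific protein and a binder of non-muscle myosin, read 5.98, 4.88, 5.82, 6.05, 6.34 and 5.04 in SRI-tg10 islets, against 5.60, 5.96, 5.21, 5.52, 4.96 and 6.01 in control islets. It was detected on 4 arrays of each group. The means were 5.69 ± 0.59 in SRI-tg10 and 5.54 ± 0.41 in control islets (SD, n = 6 each), and the difference was 0.14 ± 0.26 (SE; limma adjusted p = 0.954, exact permutation p = 0.619).

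S100a6, calcyclin, read 9.98, 8.91, 10.56, 10.38, 10.18 and 9.48 in SRI-tg10 islets, against 9.62, 9.87, 8.89, 9.54, 9.53 and 10.19 in control islets. The 2 highest arrays were SRI-tg10 mice, while the lowest arrays of the groups lay side by side. Its difference of 0.31 ± 0.28 (SE) was the largest in size among the kept member probes, with folds from 0.818 to 1.87 inside the 95% interval, and it did not pass the test (limma adjusted p = 0.922, exact permutation p = 0.34). The sign was the same on leaving out each array in turn, from 0.16 to 0.51.

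S100a10, the light chain of the annexin A2 complex, read 8.12, 8.14, 9.18, 9.40, 9.28 and 9.15 in SRI-tg10 islets, against 8.22, 8.66, 7.99, 8.72, 9.49 and 9.27 in control islets. The difference was 0.15 ± 0.30 (SE), with folds from 0.710 to 1.74 inside the 95% interval (limma adjusted p = 0.954, exact permutation p = 0.647). It was 0.0064 without control replicate 3 and 0.31 without control replicate 5. Control replicate 5 had the highest normalized level, but its intensity before normalization (452.1) was below that of control replicate 6 (729.1). The high arrays were mostly those of letter B. Letter B averaged 9.28 in SRI-tg10 and 9.16 in control islets, and letter A 8.48 in SRI-tg10 and 8.29 in control islets (n = 3 each). The difference between letters, B minus A, was 0.83 ± 0.20 (SE), with an unadjusted p of 0.00145 that did not pass adjustment over all kept probes (limma adjusted p = 0.131). Between the letters 17 kept probes passed the adjusted threshold (0.0928%) and 3082 had an unadjusted p under 0.05 (16.8%). The ILMN_1212626 probe of S100a11 was the other member probe with an unadjusted p under 0.05, at 0.46 ± 0.16 (SE; unadjusted p = 0.0154, adjusted p = 0.212, both with limma).

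The authors' deposited table lists all 9 probes, with adjusted p-values from 0.909 to 0.989, among 26560 probes of which 5 pass 0.05. The sources used here do not state its direction, but the Sri rows of the authors' deposited table are positive (4.35 to 5.55), as SRI-tg10 minus control is. Its log2 fold changes for the members run from -0.28 for S100a9 to 0.088 for S100a8, and for S100a4 (-0.086), S100a13 (-0.060) and the ILMN_1212626 probe of S100a11 (-0.016) the authors' deposited table has the opposite sign to the values above. For S100a6, whose difference of 0.31 was the largest among the kept member probes, the authors' deposited table has 0.051. The size of that difference thus depends on the processing.

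Variation between mice, whatever their group, was shared by some of the members. Correlations across the 12 arrays were computed for all 28 pairs of members, with p-values from 100000 permutations adjusted over the 28. Among the 15 pairs of the 6 genes other than S100a8 and S100a9, 2 passed an adjusted p of 0.05. S100a4 and S100a6 correlated with r = 0.815 (permutation p = 0.00145, adjusted 0.0203) and rho = 0.825 (permutation p = 0.00141, adjusted 0.0197). The correlation was 0.779 without the 2 arrays farthest from the median, 0.847 within SRI-tg10 islets, 0.755 within control islets, 0.854 within letter A and 0.901 within letter B (6 arrays each). It missed the adjusted threshold on leaving out SRI-tg10 replicate 2 or SRI-tg10 replicate 4, where r was at least 0.758. S100a4 was detected on only 8 of the 12 arrays, so its correlations, here and below, include values near the detection limit.

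S100a10 and S100a13 correlated with r = 0.800 (permutation p = 0.00245, adjusted 0.0229) and rho = 0.783 (permutation p = 0.00374, adjusted 0.0349). The correlation was 0.698 without the 2 farthest arrays, 0.903 within SRI-tg10 islets, 0.683 within control islets, 0.830 within letter A and 0.631 within letter B. With 1 array left out r ran from 0.762 to 0.857, and it missed the adjusted threshold without SRI-tg10 replicate 1, 2 or 4 or control replicate 3 or 5. With median scaling in place of quantile normalization it was 0.465 and did not pass (adjusted p from permutation = 0.320). The neighbours S100a1 and S100a13, whose promoter windows overlap, correlated with r = 0.490 (permutation adjusted p = 0.262), and with 0.0986 without the 2 farthest arrays. The 13 pairs of these 6 genes that did not pass ran from -0.561 to 0.613.

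**Figure D3:**
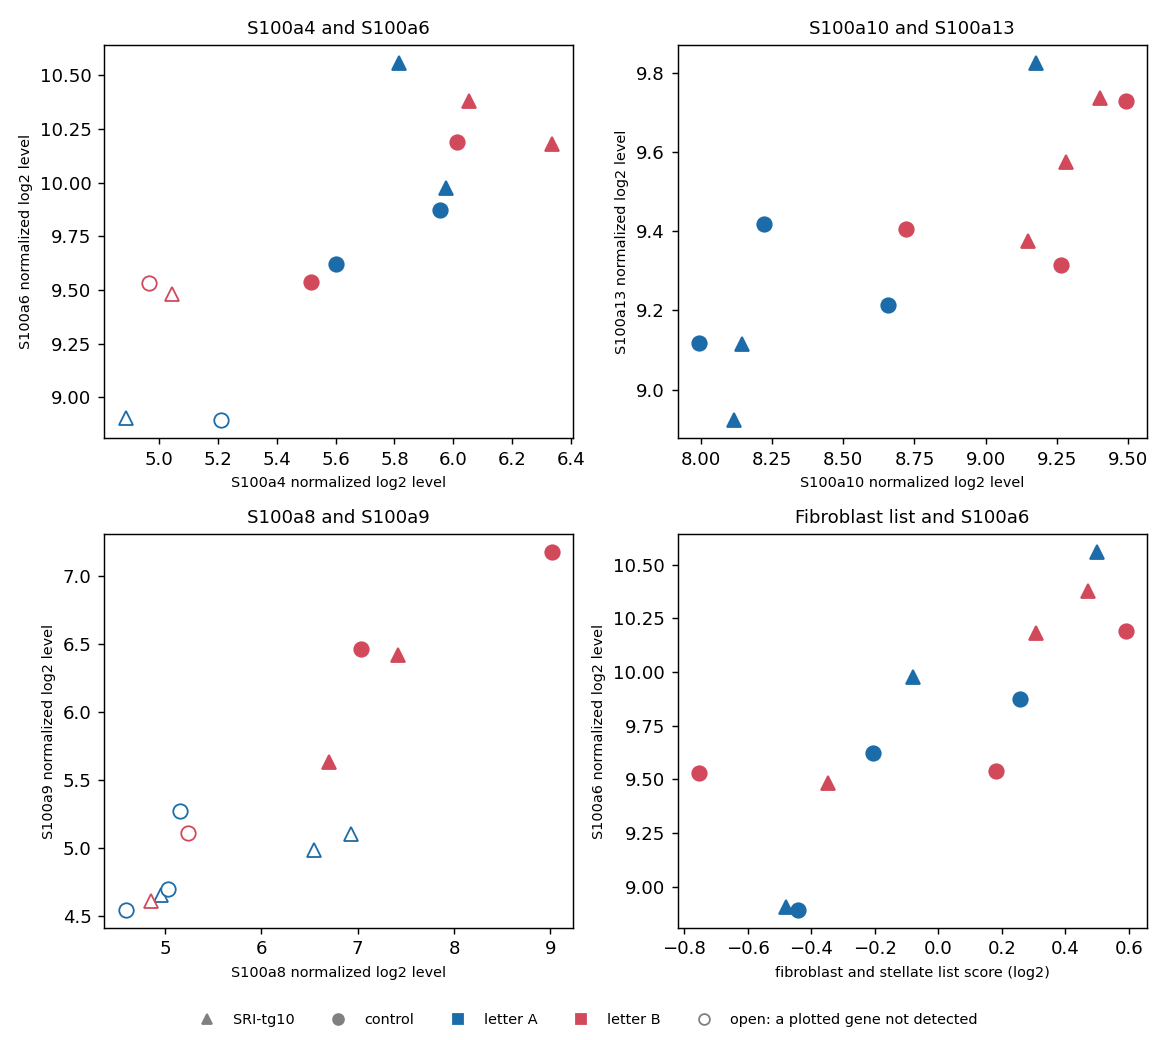
Levels of 2 members, or of S100a6 and the fibroblast list score, plotted against each other for the 12 arrays (log2), with triangles for SRI-tg10, circles for control, colour for the title letter and open symbols where a plotted gene was not detected. In the S100a4 and S100a6 panel (r = 0.815) triangles and circles lie along the same band. In the S100a8 and S100a9 panel the arrays split along S100a8 into undetected and detected ones.

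S100a4 and S100a6 also went with the genes of other cell types in the islet preparations. Each member was set against the score of 10 marker lists, the mean of the listed genes' log2 levels after each was centred on its own mean, and the 80 p-values were adjusted together. Fibroblast and stellate cell genes, 20 kept genes such as the collagens, correlated with S100a4 with r = 0.849 (permutation p = 0.00099, adjusted 0.0318) and rho = 0.832 (permutation p = 0.00128, adjusted 0.0341). Within SRI-tg10 islets r was 0.824 and within control islets 0.934. S100a6 correlated with the fibroblast list with r = 0.819 (permutation p = 0.00159, adjusted 0.0318) and rho = 0.895 (permutation p = 0.00026, adjusted 0.0208), and r was 0.954 within SRI-tg10 and 0.719 within control islets. Without the 2 farthest arrays these correlations were 0.757 for S100a4 and 0.791 for S100a6. Within letters A and B they were 0.784 and 0.889 for S100a4, and 0.932 and 0.799 for S100a6.

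Macrophage and dendritic cell genes, 21 kept genes such as Cd74 of antigen presentation and Laptm5, correlated with S100a6 with r = 0.818 (permutation p = 0.00137, adjusted 0.0318), and with rho = 0.734 (permutation p = 0.00836, adjusted 0.0991). It was 0.838 without the 2 farthest arrays, 0.890 within SRI-tg10 islets, 0.773 within control islets, 0.770 within letter A and 0.961 within letter B. S100a4 gave r = 0.777 with this list and r = 0.766 with lymphocyte genes, neither of which passed (permutation adjusted p = 0.0582 for each). All 21 kept macrophage genes averaged higher in SRI-tg10 than in control islets (median difference 0.27), where 49.3% of all kept probes did, and none passed the test. These genes were read in the same mice, so they are not 21 separate observations. The highest score of the macrophage list was that of control replicate 6 (1.07). That list's summed linear level ranged from 15269 to 53262 in SRI-tg10 islets and from 12293 to 63996 in control islets. Of the 20 fibroblast genes, 11 had a higher and 9 a lower mean in SRI-tg10 islets (median difference 0.18, none called), and their sum ranged from 7035 to 14925 in SRI-tg10 islets and from 7054 to 18247 in control islets. The part of these cell types in the S100a4 and S100a6 levels was not tested.

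S100a10 ran opposite to the islet endocrine genes, 17 kept genes such as the hormones Iapp and Ppy. The correlation was -0.782 (permutation p = 0.00152, adjusted 0.0318) and rho was -0.839 (permutation p = 0.00123, adjusted 0.0341). It was -0.885 without the 2 farthest arrays, -0.708 within SRI-tg10 islets, -0.886 within control islets, -0.682 within letter A and -0.700 within letter B. With median scaling it was -0.52 and did not pass (permutation adjusted p = 0.242). The endocrine sum ranged from 206290 to 260612 in SRI-tg10 islets and from 199144 to 254941 in control islets, with 8 genes higher and 9 lower in SRI-tg10 islets and none called.

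These 4 list correlations, all at an adjusted p of 0.0318, were sensitive to single arrays. All of them passed without SRI-tg10 replicate 1, and none passed without control replicate 1, 2, 3 or 6 or without SRI-tg10 replicate 2, 3, 4 or 5. Without control replicate 4 both fibroblast correlations passed, without control replicate 5 the one of S100a6 with fibroblast genes, and without SRI-tg10 replicate 6 the one of S100a10. The size of r moved little: from 0.814 to 0.888 for S100a4 and from 0.791 to 0.891 for S100a6 with fibroblast genes, from 0.788 to 0.841 for S100a6 with macrophage genes, and from -0.831 to -0.743 for S100a10 with endocrine genes. S100a1, S100a11 and S100a13 passed with no list, with r from -0.653 (S100a13 with endocrine genes) to 0.482 and adjusted p-values of at least 0.139.

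**Figure D4:**
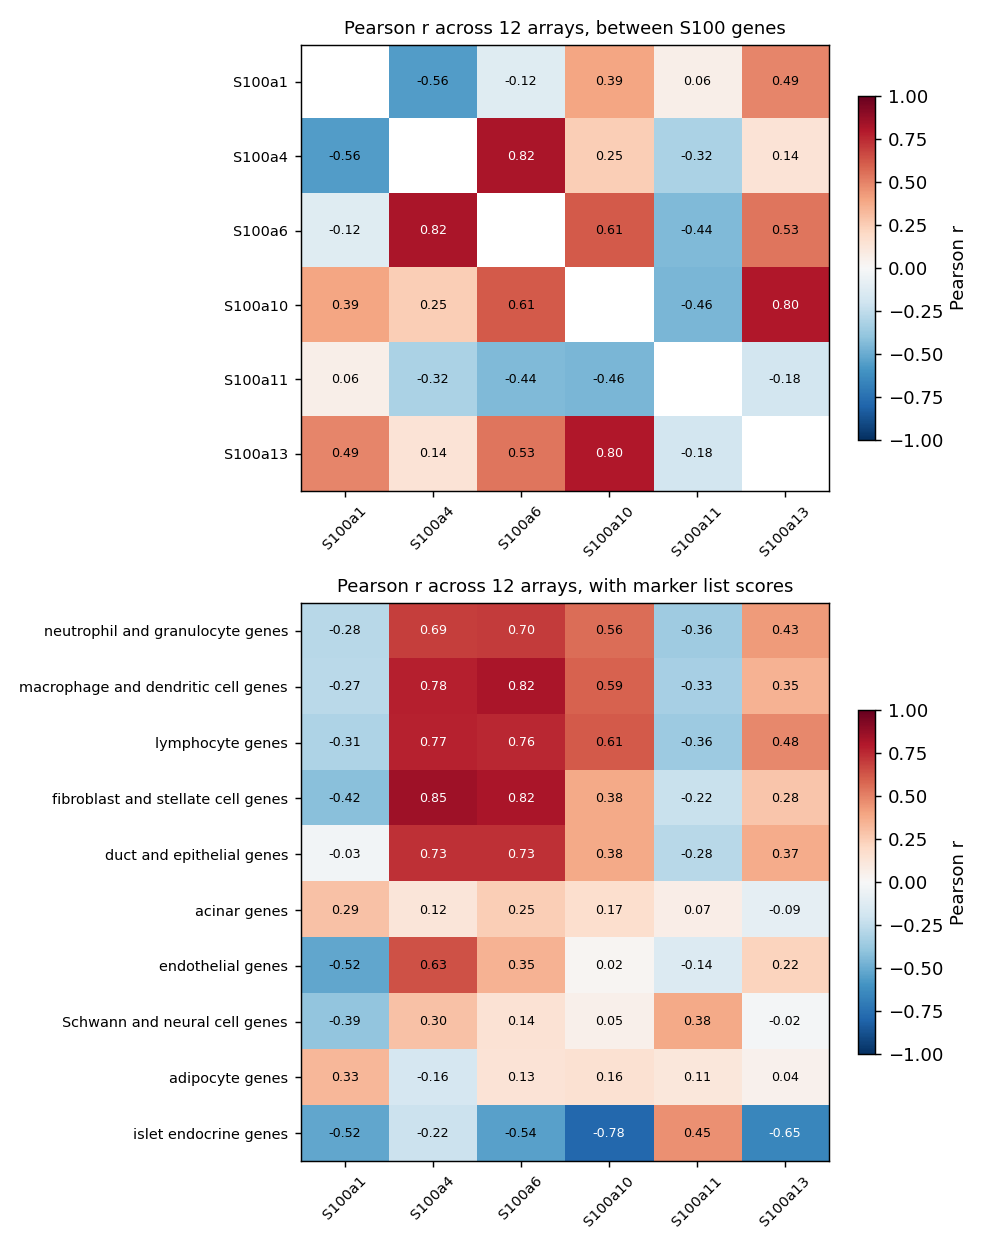
Pearson r across the 12 arrays between the 6 members other than S100a8 and S100a9 (upper panel) and between them and the 10 marker list scores (lower panel), with the colour scale from -1 to 1. S100a4 and S100a6 are most positive with the fibroblast, macrophage, lymphocyte, duct and neutrophil lists, and S100a10 is most negative with the endocrine list (r = -0.78).

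Known partners of S100 proteins were examined with a list of 37 genes, of which 28 were kept. In SRI-tg10 islets 13 were higher and 15 lower, with a median difference of -0.021 where the median of all kept probes was -0.0036, and none passed the test or had an unadjusted p under 0.05. The smallest p-value belonged to Trp53, the tumour suppressor p53, at 7.69 ± 0.27 in SRI-tg10 and 7.39 ± 0.29 in control islets (SD, n = 6 each), a difference of 0.30 ± 0.16 (SE; limma adjusted p = 0.922). Anxa6, an annexin that binds membranes in the presence of calcium, differed by 0.27 ± 0.15, the receptor phosphatase Ptprf by 0.31 ± 0.18 and the acid-sensing channel Asic1 by 0.34 ± 0.20 (SE), all with a limma adjusted p of 0.922. The receptors of calprotectin differed by -0.25 ± 0.18 for Ager and -0.12 ± 0.26 for Tlr4 (SE). Anxa2, the partner of S100a10, differed by -0.13 ± 0.24 and Myh9, the myosin that S100a4 binds, by 0.22 ± 0.18 (SE).

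Members and their own partners were compared across mice in 12 pairs, chosen after the group results were seen. Of these, 3 passed an adjusted p of 0.05, with adjustment over the 12 pairs only. The share of all kept probes with as high an r was not computed. Genes outside the partner list reached a higher r, such as Klf2 with S100a4 (0.970), Fbln1 with S100a6 (0.920) and Rpl31 with S100a10 (0.957). The pairs therefore show no link particular to partners. S100a4 and Myh9 correlated with r = 0.843 (permutation p = 0.00078, adjusted 0.00936) and rho = 0.895 (permutation p = 0.0002, adjusted 0.0024). The correlation was 0.786 without the 2 farthest arrays, 0.876 within SRI-tg10 islets, 0.826 within control islets, 0.605 within letter A and 0.957 within letter B. It did not pass without SRI-tg10 replicate 5, where r was 0.795.

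S100a10 and Anxa2 correlated with r = 0.763 (permutation p = 0.00657, adjusted 0.0394) and rho = 0.825 (permutation p = 0.00171, adjusted 0.0103). It was 0.668 without the 2 farthest arrays, 0.736 within SRI-tg10 islets, 0.924 within control islets, 0.758 within letter A and 0.529 within letter B. S100a6 and Anxa2 gave r = 0.712 (permutation p = 0.0101, adjusted 0.0402) and rho = 0.741 (permutation p = 0.00751, adjusted 0.0300), but 0.461 without the 2 farthest arrays, so that its size over all 12 rests on those arrays. Within the groups it was 0.783 in SRI-tg10 and 0.848 in control islets, and within letters A and B 0.776 and 0.758 (6 arrays each). With median scaling neither Anxa2 correlation passed (0.63 each, permutation adjusted p = 0.0526). On leaving out 1 array, S100a10 with Anxa2 passed in 5 of 12 cases and S100a6 with Anxa2 in 4 of 12. S100a4 with Anxa2 did not pass by r (0.604, permutation adjusted p = 0.0964) but did by rho (0.699, permutation adjusted p = 0.0393). S100a8 with Tlr4 and S100a9 with Ager did not pass either. No value is given for them, because of the S100a8 clusters and the few arrays with S100a9 detected. The other pairs that did not pass were S100a13 with Fgf1 (r = 0.0101), S100a13 with the vesicle protein Syt1 (r = 0.286), S100a10 with Ahnak (r = 0.442), S100a6 with Cacybp (r = -0.362), S100a1 with Ryr1 (r = -0.156) and S100a1 with the calcium pump Atp2a2 (r = -0.369).

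The genes most like each member were read from the kept probes by Pearson r over the 12 arrays, outside the S100 family, as a description with no test. For S100a4 they were Klf2 (0.970), a transcription factor of lymphocytes and endothelium, Fnbp1 (0.944) and Smad3 (0.934), a mediator of TGF-beta signals. For S100a6 they were Fbln1 (0.920), a matrix protein, Mmp14 (0.910), a membrane-bound matrix protease, and Hsd11b1 (0.904), which activates glucocorticoids. For S100a10 they were the ribosomal protein gene Rpl31 (0.957), Gm14407 (0.956) and the proteasome activator subunit Psme2 (0.940). For S100a13 they were Ndufa2 (0.931), a subunit of respiratory complex I, Ttc7 (0.918) and Supt4a (0.909), a transcription elongation factor. S100a1 was closest to Ociad2 (0.931), Tlr2 (0.912) and Tmem9b (0.908), and the genes like S100a11 (ILMN_2883392) included Ccdc124 (0.848) and the kinase Pak2 (0.839). No such genes are given for S100a8, whose arrays fell into clusters, or for S100a9, which was detected on only 4 arrays. Without the 2 arrays farthest from the median, the S100a1 values were lower, at 0.790 for Ociad2 and 0.783 for Tlr2.

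Of the other S100 genes looked for, 7 had a probe on the array, as did S100pbp, which encodes a binding protein of S100 proteins, giving 10 probes. S100a16 was the only one detected on at least 6 arrays, and it was detected on all 12. It read 6.66 ± 0.49 in SRI-tg10 and 6.67 ± 0.37 in control islets (SD, n = 6 each), a difference of -0.0055 ± 0.23 (SE; limma adjusted p = 0.997). S100b, a marker of glia and Schwann cells, and S100a5 were each detected on 1 array, an SRI-tg10 mouse. S100a3, S100a15 and S100g were detected on no array, and no probe of S100a14 or S100pbp was detected on more than 4.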

How the data were processed

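Islet RNA of 12 mice was hybridised to Illumina bead arrays. The deposited table holds linear bead intensity values for 45281 probes, neither background-subtracted nor normalized (from the values), and the deposited detection p-value of each probe and array, per the file headers. The submitters' processing notes list GenomeStudio, with no version. The authors' deposited comparison table gives log2 fold changes with p-values, and a t score per the file headers. The deposited value table of the series holds log2 values of unstated origin. On comparison with the intensities, 10 of its 12 columns followed another array than the one they are labelled with and 2 followed their own, so it was used only for correlations across arrays. Its column medians ran from 5.70 to 5.89, and its scaling is not stated.

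Intensities were processed with neqc (limma 3.58.1, R 4.3.3, offset 16, negative controls inferred from detection p-values). Probes with a detection p under 0.05 on 6 of 12 arrays or more were kept (18315 probes, 12647 gene names). Groups were compared with lmFit and eBayes, SRI-tg10 minus control, with Benjamini-Hochberg adjustment over all kept probes, and the exact permutation test ran over all 924 assignments (smallest possible p 0.00216). Errors of differences are moderated SE. A gene is represented by its kept probe with the highest mean. Correlations used Python 3.11.15 and NumPy 2.4.6. The named genes were all member probes, Sri, up to 4 genes of each list by p-value and 3 by level, and the 3 genes most like each member, not all of which are reported here. Genes of partner pairs were added after their values were seen. The members and lists were chosen with earlier results of these data known. The fit was tested on simulated data. Alternatives were the background correction, scaling, offset, filter, array weights, title letter and each array left out. The number of arrays limits the precision.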

Additional observations from a re-analysis of the deposited data

How the results depend on the processing

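No S100 probe passed an adjusted p of 0.05 with limma under any alternative run, and none passed in the test between letters or of the letter effect. Signs of small differences turned. The S100a8 difference was -0.012 with no background correction and -0.77 within letter B, and ran from -0.062 to 0.82 with 1 array left out. S100a4 gave -0.013 with array weights and -0.030 within letter A, S100a13 -0.021 with array weights, S100a1 -0.13 within letter B, and ILMN_1212626 of S100a11 -0.24 within letter A. With 1 array left out, the ranges were -0.021 to 0.16 for S100a13, -0.016 to 0.21 for ILMN_1212626, -0.077 to 0.00023 for ILMN_2883392 and -0.55 to 0.015 for S100a9. S100a6 and S100a10 kept their sign in every alternative run. With 1 array left out, S100a10 ran from 0.0064 to 0.31, S100a1 from 0.0021 to 0.12 and S100a4 from 0.012 to 0.30. The count of all kept probes past the threshold was 2 within letter B, against 4 in the whole comparison, and 3 to 5 with 1 array left out. Of the correlations past their adjusted threshold, member pairs numbered 3, and 1 to 4 with 1 array left out. The 3 include S100a8 with S100a9, where the S100a8 clusters make a value over all arrays unsuitable, so that 2 are reported. List pairs numbered 4, and 0 to 7 with 1 array left out, and partner pairs 3, and 0 to 4. With median scaling the list pairs numbered 8, of which 3 were among the original 4. With the deposited values of the series, 2 correlations did not pass, S100a10 with endocrine genes (-0.42) and S100a6 with Anxa2 (0.65). The causes were not tested. The group comparison on the value table was not run, because its columns follow other arrays than their labels. No paired analysis was possible because the labels number the mice separately and the replicate numbers follow accession order. Within-letter fits, leave-one-out correlations and partner pairs were chosen after seeing the data. S100a8, S100a9 and S100a4 lie near the detection limit, where the size of log2 differences depends on the background correction. With no background correction the SE of the group difference was 0.33 for S100a8 and 0.094 for S100a4, against 0.71 and 0.26 in the main fit.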

Other observations

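Each of the 12 columns of the deposited value table matched 1 array of the intensity table, and each array was matched by 1 column. In 10 columns the matching array was not the one the column is labelled with. Read in column order, the matching arrays were control replicates 1 to 6 and then SRI-tg10 replicates 1 to 6. The labels alternate between the groups. The intensity table's own columns carry the sample titles, and the level of Sri on them followed the labels, with the 6 SRI-tg10 arrays from 12.72 to 14.96 and the 6 control arrays from 9.6 to 10.09 (log2, probe ILMN_2600537).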
